A study of Saccharomyces cerevisiae with 4 samples.

Results

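The genes described here lie on the left arm of chromosome III of the budding yeast Saccharomyces cerevisiae. They are the 59 gene probes of the array whose systematic name starts with YCL, out of 65 such probes and 6256 gene probes in all. LEU2, AGP1, HIS4, GLK1, PDI1 and CHA1, which lie on the same arm, were left out. ORF numbers rise from the centromere toward the telomere, so the systematic names give the order of the genes. The arm came to attention because its genes were on balance lower on these same arrays, so its level and its genes' ratios are given as a description, and no test of them is drawn on.

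The study compared the translocant strain D10 Small with its parent, WT San I, by hybridising 4 two-colour arrays of gene oligonucleotides. Cy3 marked the RNA of D10 Small, from a different biological replicate on each array, and Cy5 marked 1 WT San I pool that all arrays shared. Cultures of both strains in YPD, which is rich in glucose, were harvested at an optical density between 0.4 and 0.5. Only D10 Small received kanamycin, at 200 mkg/ml. Strain, drug and dye therefore cannot be told apart, and the pool's own spread enters no value. The labels do not say which chromosomes were joined in the translocant or how the pool was made. Each value averages a whole culture, so less transcript in every cell and fewer cells with the transcript cannot be told apart. Values are log2 ratios of D10 Small over the pool unless stated, so that -1 is a 2-fold lower signal in D10 Small. Between any pair of arrays, Pearson's r of the ratios was 0.975 to 0.990 across genes, which are not independent replicates.

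Chromosome III is the chromosome of yeast mating type. The MAT locus on its right arm sets the cell type, and the silent cassette HML, near the telomere of the left arm, stores a copy of the alpha information. The rest of the left arm carries genes of many unrelated functions, among them factors that build ribosomes, genes of mating and of cell polarity, mitochondrial enzymes and proteins of the secretory pathway. A change that acts on a whole arm moves its genes together, while regulation of single genes moves some of them away from their neighbours.

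Signal was sufficient to follow 48 of the 59 members. A gene was tested when 1 or both channels of its probe stood above background on 3 or 4 arrays. Of the 48 tested members, 44 were above background in both channels on all 4 arrays. Of the 11 members that were not tested, 10 were not above background in either channel on any array. These were YCL001W-A, YCL001W-B, YCL022C, YCL023C, YCL042W, YCL046W, FYV5, YCL065W, VBA3 and the retrotransposon remnant YCL076W. The other, YCL007C, was above background on 2 arrays in D10 Small and on 1 in the pool. The mean raw intensity of the untested members ran from 16.5 to 22.2 in D10 Small and from 13.7 to 17.3 in the pool. That of the tested members ran from 24.6 to 1836 and from 14.9 to 2953. Raw intensities are given before background correction and normalisation between the dyes. Raw values of the 2 channels therefore do not give the ratio, and can differ from it in direction.

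The arm as a whole was lower in D10 Small. The median ratio of the tested members was -0.76 on replicate 1, -0.76 on replicate 2, -0.73 on replicate 3 and -0.79 on replicate 4. Its mean over arrays was -0.76 ± 0.02 (SD, n = 4), which is 59.1% of the pool's signal. The 4 arrays lay close together, and the median of the 5740 other tested genes was 0.02 ± 0.00453 (SD, n = 4). Ratios were below 0 on all 4 arrays for 40 members and above 0 on all 4 for 6, and 2 members had both signs. Among all 5794 tested genes, 41.5% lay below 0 on all arrays, against 83.3% of the tested members. At least 2-fold lower ratios were seen for 19 members, 39.6% of those tested, against 3.05% of all tested genes, and 0 members were at least 2-fold higher. By limma's test with Benjamini-Hochberg adjustment over all genes, 39 members passed as lower and 4 as higher, 81.2% and 8.33% of those tested. The same call was made as lower for 39.5% and as higher for 43.2% of all tested genes. The arm was chosen on this contrast, so nothing is read from these counts.

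The lower level did not come from a few genes, yet the genes of the arm were far from equal. Mean ratios of the tested members ran from -2.06 for KRR1 to 0.72 for ATG22, with quartiles at -1.30 and -0.33. The SD between genes was 0.69. The SD between arrays of a single member ran from 0.01 to 0.17 with a median of 0.09. The SD between genes was 8.09 times that median. Errors of the shared pool or of the dyes that repeat on every array are not in the SD between arrays. On all arrays in 1 direction and by a mean of more than 0.5, 24 members lay away from the arm median, and 24 did not. The plot of ratios in gene order shows every array's value.

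**Figure D1:**
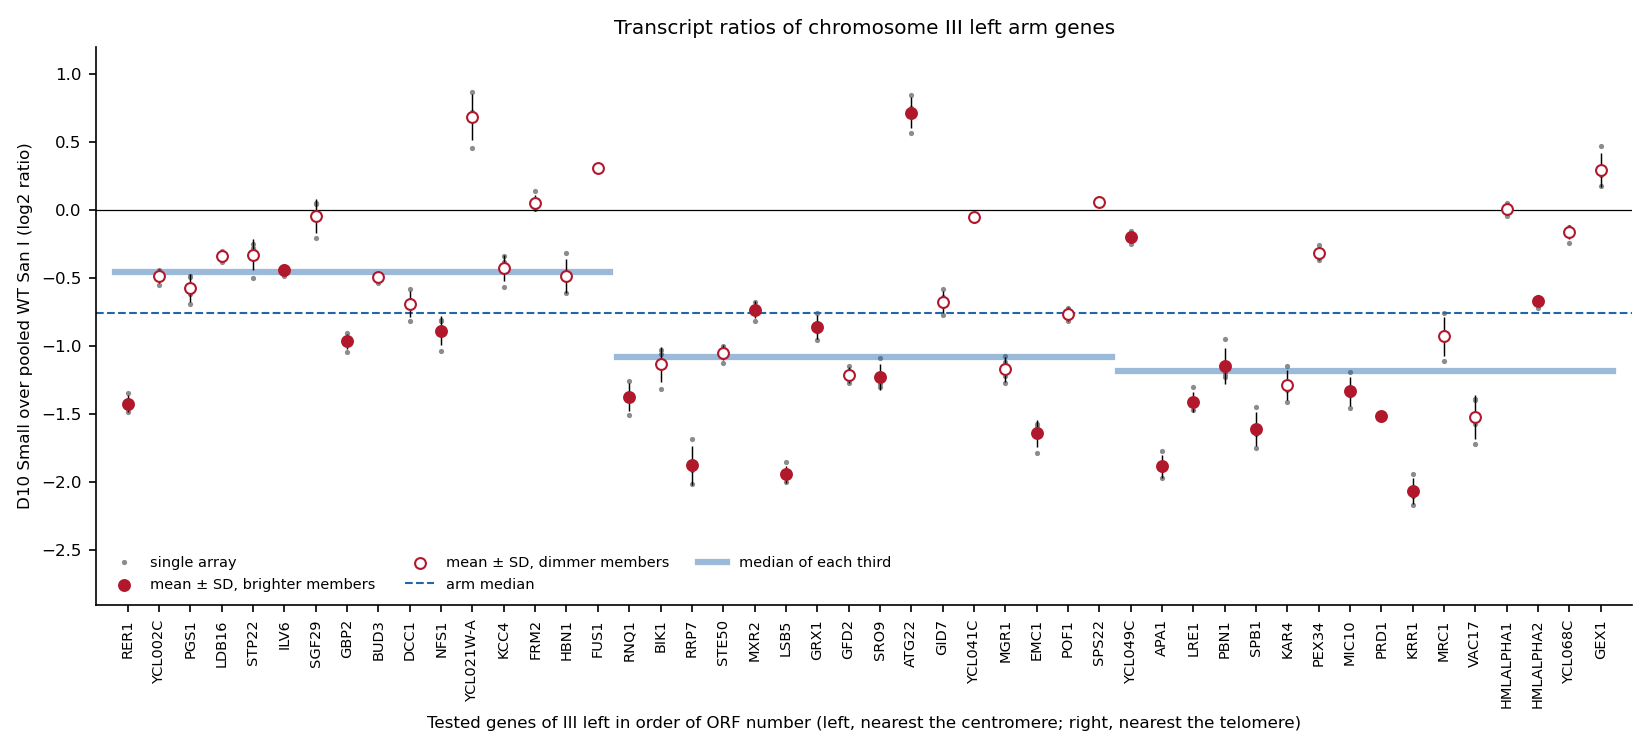
Log2 ratio of D10 Small over pooled WT San I (y axis) for the 48 tested members in order of ORF number (x axis, centromere at the left). Grey points are single arrays, circles and bars are mean ± SD over 4 arrays, filled for members at least as bright as the median tested gene, and blue lines mark the arm median of -0.76 and the medians of 3 runs of 16 genes at -0.46, -1.08 and -1.18.

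The distance from the arm median was set beside the same measure elsewhere. Of the 48 tested members, 11 lay on average more than 0.5 above the arm median with 1 sign on all arrays and 13 more than 0.5 below it, 22.9% and 27.1%. With every tested nuclear gene set against the median of its own arm, these shares were 15.9% and 12.1%. Both directions together held 24 of the 48 members, against 28.0% of all genes. The gap depended on the processing. With median centring of each array in place of loess, 19 of 48 members lay that far, 39.6%, against 35.3% of all genes. With the scanner's net ratio it was 24 of 48 members against 44.4%. Without background correction, in the authors' deposited table and with an offset of 10, the share of members was 56.25% each time. The shares of all genes were then 36.6%, 38.8% and 36.7%. GFD2 and SRO9 lay just inside the distance, at -0.45 and -0.47 from the arm median, and KAR4 and YCL049C just outside, at -0.53 and 0.56. The SD of 0.69 had rank 5 from the widest among the 32 nuclear arms, and the other 31 arms ran from 0.46 to 0.78. The interquartile range of 0.97 was the widest, with the other arms from 0.45 to 0.87.

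Brightness went with the size of the ratio on this arm. Brightness is the mean of both channels on the log2 scale, and the median tested gene stood at 8.34. The 21 members at least that bright had a median of their mean ratios of -1.33, and 20 of them lay below 0. The 27 dimmer members had a median of -0.48, and 21 of them lay below 0. Over the 48 members, which share arrays and dyes, ratio and brightness correlated with Pearson's r of -0.55 and Spearman's rho of -0.61. Over the genes outside the arm Pearson's r was 0.0360, but these pool arms that were lower with arms that were higher. On the next lowest arms the brighter genes were lower too. Their median was -0.71 against -0.52 over all tested genes on I left. It was -0.72 against -0.50 on VII right and -0.65 against -0.30 on III right. The offset of 50 that was added to both channels draws ratios of dim genes toward 0. The arm median was -0.96 with an offset of 10 and -0.96 when no background was corrected. In the authors' deposited table it was -0.98, and with the scanner's net ratio -1.34. Without background correction Pearson's r with brightness was -0.43.

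**Figure D2:**
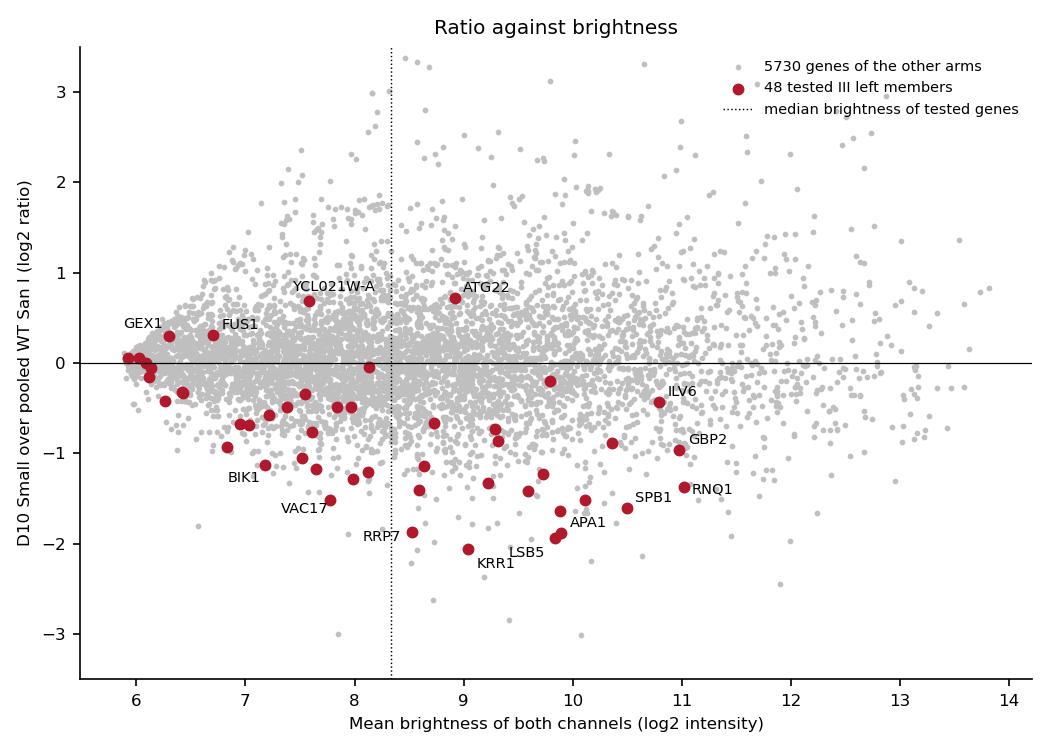
Log2 ratio of D10 Small over pooled WT San I (y axis) against the mean brightness of both channels (x axis, log2 intensity), each point the mean of 4 arrays. Red points are the 48 tested III left members and grey points 5730 genes of the other nuclear arms, of which 10 lie outside the y axis; the dotted line at 8.34 is the median brightness, and 20 of the 21 members right of it lie below 0.

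With loess normalisation, the displacement among the brighter members was close to even over the whole distribution. Set against genes of the other arms in the same range of brightness, III left differed by -1.17 at the 10th percentile of the ratios, by -1.27 at the 25th, by -1.35 at the median, by -1.30 at the 75th and by -1.35 at the 90th. The spread was then near that of other arms, with an interquartile range of 0.75 that ranked 13th of the 32 arms, against 0.30 to 1.04 on the others. Over all 48 tested members the same differences were -1.02, -1.03, -0.77, -0.68 and -0.72, with smaller displacements from the median upward than at the 10th and 25th percentiles. This order depended on the processing, since with median centring the differences were -1.02, -0.84, -0.71, -0.89 and -0.95. By the scanner's net ratio the differences over all tested members were -1.27, -1.25, -1.33, -1.23 and -0.69. Over the 21 brighter members they were less even with median centring, at -1.02, -1.27, -1.26, -1.18 and -1.40. By the net ratio the brighter members had -1.29, -1.30, -1.40, -1.37 and -1.47. With 21 members, the 10th and 90th percentiles rest on few genes. Splitting the genes by brightness was chosen after the values were seen. III right, on the same chromosome, had a median over its 96 tested genes of -0.30 ± 0.02 (SD, n = 4), with -0.65 for its brighter genes. I left had -0.52 ± 0.01 over 64 genes, with -0.71, and VIII left had 0.33 ± 0.04 over 46 genes, with 0.44. These differences between arms were not tested.

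**Figure D3:**
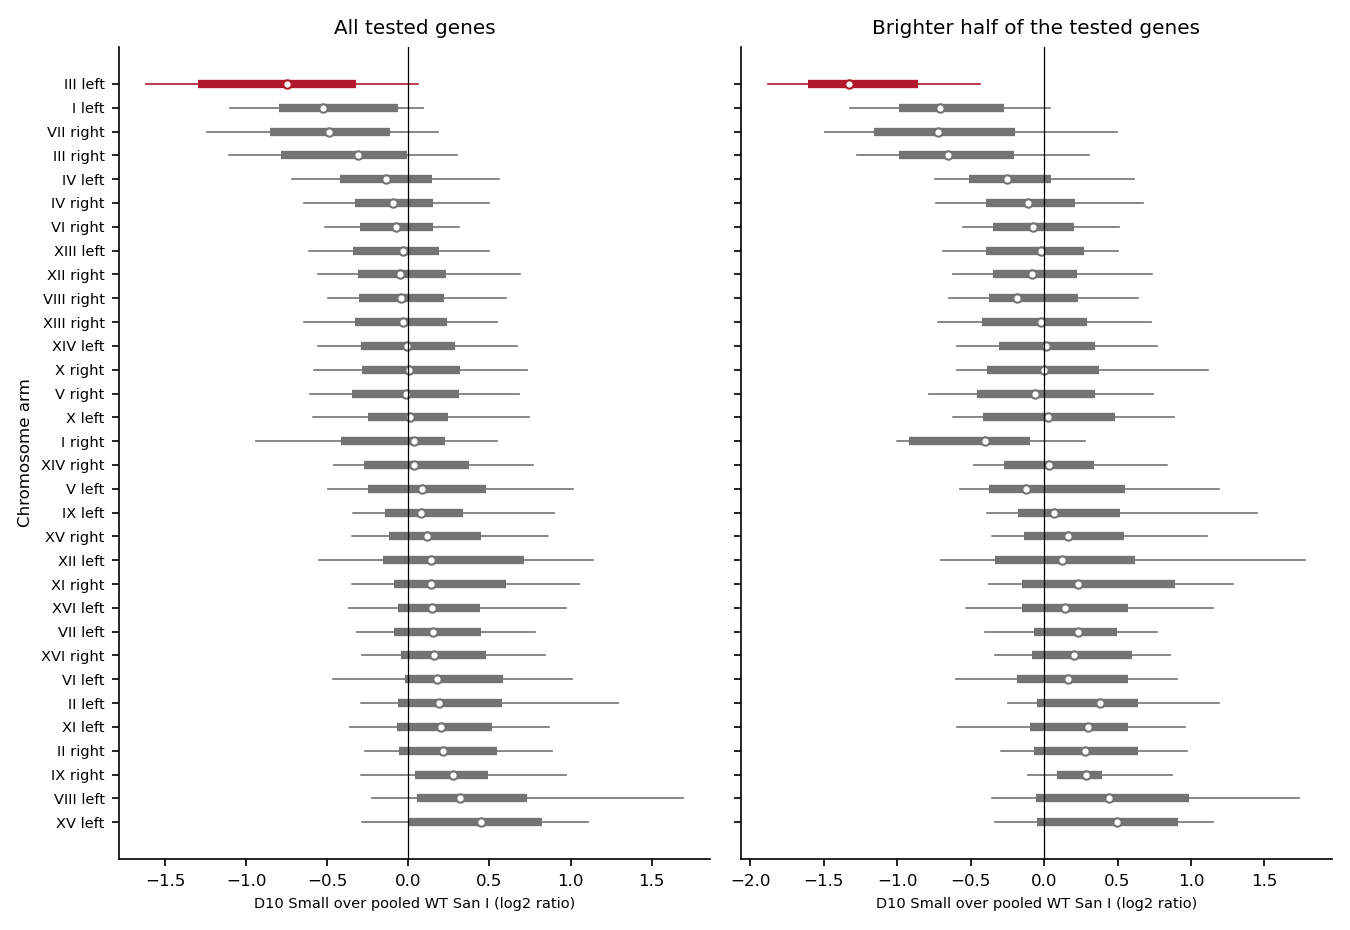
Log2 ratios of D10 Small over pooled WT San I (x axis) on the 32 nuclear chromosome arms (y axis), for all tested genes and for those at least as bright as the median tested gene. White circles are medians over genes, thick bars the quartiles and thin lines the 10th to 90th percentiles of the mean ratios; III left (red) has the lowest median in both panels, -0.75 and -1.33.

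The ratio also differed along the arm. With the tested members divided in order into 3 runs of 16 genes, a division chosen after the values were seen, the run nearest the centromere, from RER1 to FUS1, had a median of -0.46 ± 0.03 (SD, n = 4). The middle run, from RNQ1 to SPS22, had -1.08 ± 0.08, and the outer run, from YCL049C to GEX1, -1.18 ± 0.10. The array values of the first run, -0.49 to -0.42, did not overlap those of the middle run, -1.19 to -1.01, or of the outer run, -1.26 to -1.04. The middle and the outer run overlapped each other. These ranges cover arrays only, and the runs hold different genes. Between genes the SD within the runs was 0.50, 0.71 and 0.72 from the centromere outward. Single genes ran from -1.42 to 0.69, from -1.94 to 0.72 and from -2.06 to 0.30, so gene by gene the runs overlapped. At least 2-fold lower ratios were seen for 1 of 16 members in the run nearest the centromere and for 9 of 16 in each of the other runs. Brightness differed in the same order, with medians of 7.56, 8.33 and 8.62. Among the brighter members alone the medians were -0.92 over 4 genes, -1.30 over 8 and -1.43 over 9. With the scanner's net ratio the 3 medians were -0.87, -1.49 and -1.65. The part of brightness in this difference was not tested beyond these values.

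Within the run nearest the centromere, RER1 was the lowest and the only member at least 2-fold lower. RER1, which returns membrane proteins from the Golgi to the endoplasmic reticulum, had -1.48, -1.34, -1.46 and -1.40 on the 4 arrays. Its nearest tested neighbours YCL002C and PGS1, the latter an enzyme of mitochondrial phospholipid synthesis, lay at -0.48 ± 0.05 and -0.57 ± 0.10 (SD, n = 4). Running medians over 7 neighbouring tested members stayed between -0.49 and -0.42 from RER1 to RRP7. They first passed -1 in the window from FRM2 to STE50, at -1.05, and reached -1.33 in the windows between APA1 and HMLALPHA2.

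Neighbours often differed. Of 47 neighbouring pairs of tested members, 12 differed by more than 1. The widest step lay between ATG22 at 0.72 and SRO9 at -1.23, genes next to each other in the order. The median absolute difference was 0.55 for neighbours and 0.70 for all 1128 pairs, and among the brighter members 0.54 for neighbours and 0.56 for all pairs.

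The genes listed under ribosome and RNA were the lowest group on the arm by their median. All 6 members of this list were called lower by limma, with a median of -1.42. KRR1, RRP7, SPB1, GBP2 and SRO9 were among the 21 brighter members of the arm, whose median was -1.33. The part of brightness in the level of this group was not tested. The same call was made for 81.2% of the arm's tested members and 39.5% of all tested genes. KRR1, which is needed to assemble the small ribosomal subunit, had -2.04, -2.17, -2.10 and -1.94 on the 4 arrays. At -2.06 ± 0.10 (SD, n = 4) it was the lowest member, 4.18-fold lower, and its mean raw intensity was 322 in D10 Small against 788 in the pool. RRP7, which takes part in processing the precursor of the 18S ribosomal RNA, had -2.02, -1.89, -1.91 and -1.68. SPB1, a methyltransferase of the large subunit's assembly, had -1.59, -1.64, -1.75 and -1.45. Their distances from the arm median, negative on every array, were -1.30 ± 0.11, -1.12 ± 0.16 and -0.85 ± 0.15.

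The remaining genes of this group lay nearer to the arm median. SRO9, which associates with translating ribosomes, had -1.23 ± 0.10, and GFD2 had -1.21 ± 0.06. GBP2, a shuttling protein bound to messenger RNA on its way out of the nucleus, had -0.96 ± 0.06, nearest to the arm median in this group.

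Ribosome assembly genes elsewhere were also lower, but by less when no arm median was taken off. Of 69 tested genes of ribosome biogenesis on arms other than III left, III right, I left, VII right and XV left, 58 were called lower by limma and 7 higher. Over all tested genes 39.5% were called lower and 43.2% higher. The median of the 69 genes was -0.45, with quartiles at -0.65 and -0.23. Their lowest value was -1.09 for RRP5, an early assembly factor of both subunits. KRR1, RRP7 and SPB1 each lay below that lowest value, with the shift of III left still in their ratios. Their distances from the arm median were -1.30, -1.12 and -0.85, so that SPB1 then lay above -1.09. The 69 genes were not set against the medians of their own arms.

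**Figure D4:**
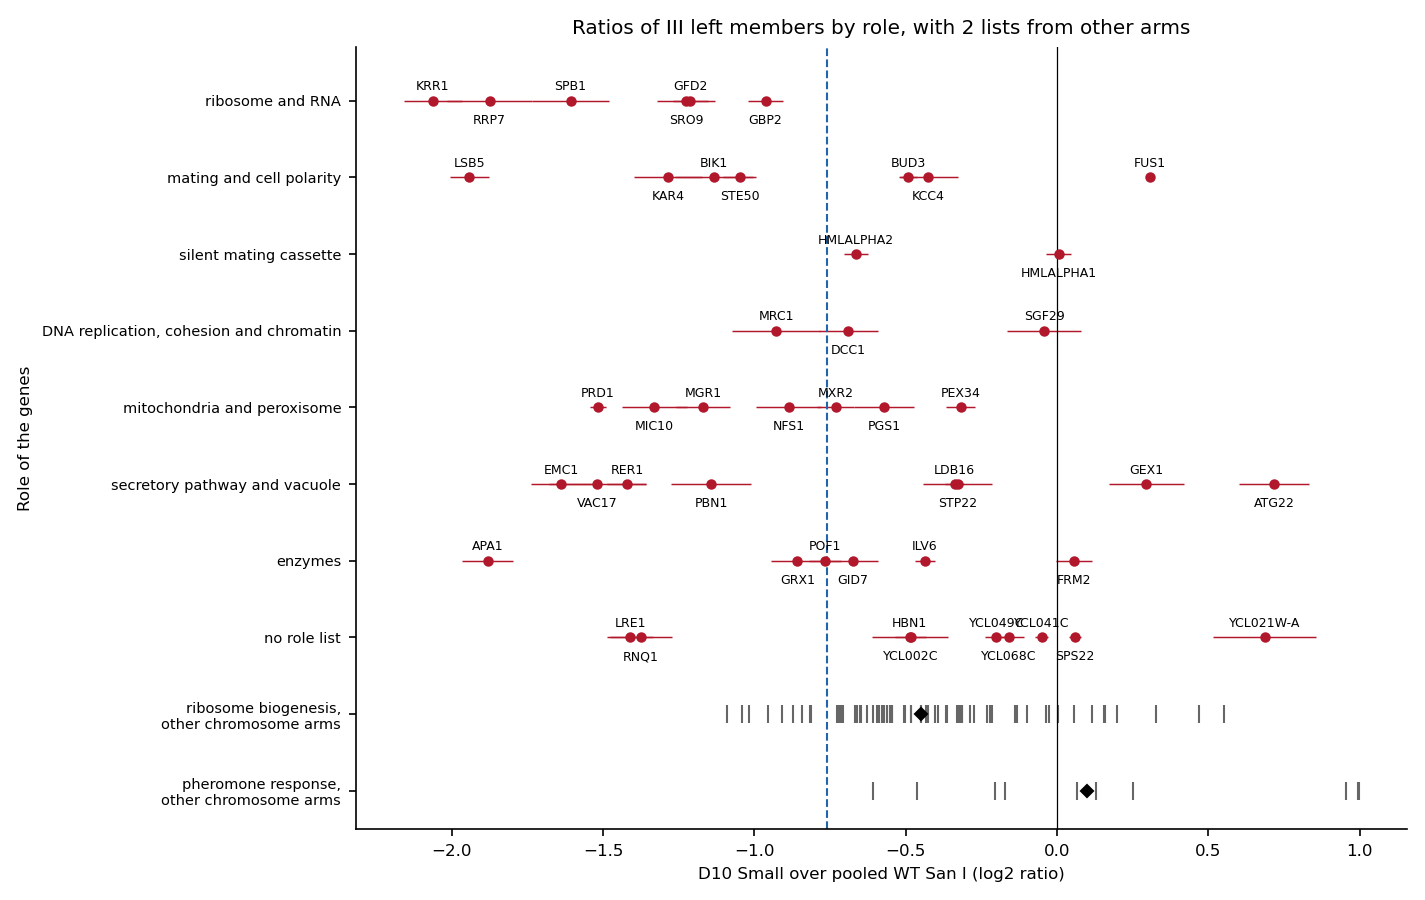
Log2 ratio of D10 Small over pooled WT San I (x axis) of the tested III left members grouped by role (y axis), red points and bars being mean ± SD over 4 arrays. Grey ticks are the mean ratios of single genes of 2 lists on other chromosome arms with black diamonds at their medians, -0.45 for ribosome biogenesis and 0.10 for pheromone response; the dashed line is the arm median of -0.76.

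Genes of mating and cell polarity went both ways. Of 7 members, 6 were called lower by limma and 1 higher, with a median of -1.05, beside 81.2% and 8.33% of the arm's tested members and 39.5% and 43.2% of all tested genes. LSB5, which binds a regulator of actin assembly at the cell cortex, had -1.85, -1.95, -2.0 and -1.96, the second lowest ratio of the arm. KAR4, a transcription factor needed for the fusion of nuclei in mating, had -1.41, -1.26, -1.32 and -1.14. STE50, the adaptor of the mating and osmosensing kinase Ste11, had -1.05 ± 0.05, and BIK1, a microtubule-binding protein, had -1.13 ± 0.13. BUD3, which marks the bud site, and KCC4, a kinase of the septin ring, lay above the arm median with -0.49 ± 0.03 and -0.42 ± 0.10. KCC4 was dim, and without background correction it had -0.96.

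FUS1, a membrane protein made in response to pheromone and needed for cell fusion, stood apart from its neighbours. Its ratio was 0.30, 0.30, 0.31 and 0.32 on the 4 arrays, the smallest spread between arrays among the tested members. It lay 1.07 ± 0.03 above the arm median, and the next gene toward the telomere, RNQ1, which encodes a prion-forming protein, was at -1.38 ± 0.10. FUS1 was dim, with a mean raw intensity of 111 in D10 Small and 33.9 in the pool, and its ratio was 0.51 without background correction. Genes of the pheromone response on other arms had a median of 0.10. Of 10 tested, 5 were called higher and 4 lower, near the 43.2% and 39.5% of all tested genes. These 10 genes ran from -0.61 for the kinesin partner CIK1 to 1.00 for FAR1, which arrests the cell cycle in response to pheromone.

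The silent cassette HML gave no separate measurement. HMLALPHA2, a repressor of a-specific genes, had -0.66 ± 0.04 (SD, n = 4), and MATALPHA2, the near-identical gene at MAT on III right, had -0.66 ± 0.04. HMLALPHA1, the activator of alpha-specific genes, had 0.01 ± 0.04 with the pool above background on 2 arrays and -0.44 with median centring, and MATALPHA1 had -0.03 ± 0.03. Probes of the silent and of the expressed copy may share signal, so none of these ratios can be given to 1 locus. GEX1, a glutathione exporter near the telomere, shares this limit with its copy GEX2 on XI right. GEX1 had 0.47, 0.26, 0.28 and 0.17, higher on all 4 arrays with the pool above background on 2 of them, and GEX2 had 0.38 ± 0.09. Without background correction GEX1 had 0.71, with median centring 0.02.

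Genes of DNA replication and chromatin did not move as a group. MRC1, the mediator of the replication checkpoint, had -1.11, -0.89, -0.95 and -0.76, and DCC1, a subunit of the clamp loader for sister chromatid cohesion, had -0.81, -0.70, -0.66 and -0.58. Both were dim, and without background correction they had -1.56 and -1.05. SGF29, a subunit of the SAGA histone acetyltransferase complex, had 0.05, 0.05, -0.07 and -0.20. SGF29 had both signs and was not called by limma, and with median centring it had 0.20.

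Genes of mitochondria and peroxisomes were all called lower by limma, with a median of -0.89. These 7 of 7 stand beside 81.2% of the arm's tested members and 39.5% of all tested genes. PRD1, a zinc metallopeptidase, had -1.53, -1.50, -1.54 and -1.49, at a distance of -0.76 ± 0.05 from the arm median. MIC10, which shapes the cristae of the inner membrane, had -1.33 ± 0.11, and MGR1, a subunit of an inner membrane protease, had -1.17 ± 0.09. NFS1, the cysteine desulfurase that supplies sulfur for iron-sulfur clusters and thiolated transfer RNA, had -0.81, -0.89, -0.81 and -1.04. MXR2, a methionine sulfoxide reductase, had -0.73 ± 0.06 and was among the members nearest to the arm median. PEX34, a peroxisomal membrane protein, had -0.32 ± 0.05, and without background correction it had -0.63. Its raw intensity before normalisation was 52.8 in D10 Small and 37.7 in the pool.

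Members of the secretory pathway and the vacuole held the widest range. Of 8 tested members, 6 were called lower by limma and 2 higher, with a median of -0.74, where the shares over all tested genes were 39.5% and 43.2% and over the arm 81.2% and 8.33%. EMC1, a subunit of the complex that inserts proteins into the membrane of the endoplasmic reticulum, had -1.79, -1.58, -1.62 and -1.57. VAC17, the adaptor that ties the vacuole to its motor for inheritance by the bud, had -1.72, -1.57, -1.39 and -1.39. PBN1, needed for adding mannose to the lipid anchor of surface proteins, had -1.14 ± 0.13. LDB16, a protein of lipid droplet assembly, had -0.34 ± 0.03, and STP22, a subunit of the ESCRT-I sorting complex, had -0.33 ± 0.11. STP22 was dim, with -0.69 when no background was corrected and -1.47 with the net ratio.

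ATG22, which exports amino acids from the vacuole, was the highest member of the arm. Its ratio was 0.84, 0.71, 0.75 and 0.57, and its mean of 0.72 ± 0.12 (SD, n = 4) is 1.64-fold higher in D10 Small. It lay 1.48 ± 0.10 above the arm median and was the one brighter member above 0, with a mean raw intensity of 836 in D10 Small and 250.5 in the pool. YCL021W-A, a small gene of unknown function, had 0.87, 0.73, 0.69 and 0.46, with a mean 1.44 ± 0.16 above the arm median. Both were higher on every array, and under median centring they had 0.93 and 0.89.

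Among the enzymes, APA1 stood lowest. APA1, which splits the dinucleotide diadenosine tetraphosphate, had -1.97, -1.87, -1.91 and -1.77, or 27.1% of the pool's signal. GRX1, a glutaredoxin, had -0.86 ± 0.09, POF1 -0.77 ± 0.05 and GID7, a subunit of the ubiquitin ligase that removes gluconeogenic enzymes, -0.67 ± 0.08. These 3 genes were among the 6 members nearest to the arm median. ILV6, the regulatory subunit of acetolactate synthase in branched-chain amino acid synthesis, had -0.41, -0.43, -0.42 and -0.48, nearer to 0 than every brighter member except YCL049C. FRM2, a nitroreductase-like gene, had 0.06 ± 0.06 with the pool above background on 1 array and was not called by limma. Its ratio was -0.44 under median centring and 0.80 by the scanner's own net ratio.

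The other tested members have no place in these groups. LRE1, a regulator linked to cell wall resistance, had -1.41 ± 0.08. HBN1, a relative of FRM2 named YCL027C-A on the array, had -0.49 ± 0.13. YCL049C, of unknown function, had -0.20, -0.25, -0.15 and -0.20, and lay beside APA1 with 1.68 between their ratios. It was bright, with a raw intensity before normalisation of 1070 in D10 Small and 727 in the pool. YCL068C and YCL041C, both dim, had -0.16 ± 0.05 and -0.05 ± 0.02, or -0.59 and -0.47 with median centring. SPS22, which acts in building the spore wall, had 0.06 ± 0.02 with the pool above background on 0 arrays. The bound that this gives, about 1.006-fold higher, is close to no difference. SPS22 was not called by limma, and with median centring it had -0.53.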

How the data were processed

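The deposited scanner files give spot intensity and local background per channel on a linear scale, together with the software's net log2 ratio, per the file headers. Which scanner software was used is not stated in these sources. The authors' deposited value table holds log2 ratios whose normalisation is not stated, with array medians from -0.00338 to 0.00547. Pearson's r with the computed ratios was 0.965 to 0.972, which sets their direction.

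Mean intensities were corrected with limma 3.58.1 in R 4.3.3 (normexp, offset 50) and normalised within arrays by loess, control spots at weight 0. Spots beyond 1.42 interquartile ranges of the quartiles of their probe's 7 spots were left out. Background was judged against 153 negative control spots. A spot passed with a net signal over their mean plus 2.6 SD, and a probe passed if most of its spots did. Genes above background in 1 channel on 3 arrays were tested against 0 with lmFit and eBayes, adjusted by Benjamini-Hochberg over 5794 genes at 0.05. The fit was tested on simulated data. The array number limits the precision, and bounds are open to dye bias. Symbols came from a RefSeq table of assembly R64, which held 52 of 59 members. Ratios on every array are given for the 8 members farthest above and below the arm median, the 6 nearest and role lists, in full or as mean ± SD. The members and lists were chosen with earlier results of these data known.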

Additional observations from a re-analysis of the deposited data

Results flagged for a closer look

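Of 49 sets of 4 array values examined, 48 members and the arm median, 3 had 1 array far from the other 3 by Dixon's criterion, where chance gives about 1 in 20. STP22 had -0.50 on replicate 1 against -0.29 to -0.25 on the others. PBN1 had -0.94 on replicate 4 against -1.22 to -1.19. YCL068C had -0.24 on replicate 1 against -0.14 to -0.12.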

How the results depend on the processing

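The arm median kept its sign under every alternative run. It was -0.96 without background correction, -0.67 with median centring, -0.98 in the authors' value table, -1.34 with the scanner's net ratio, -0.96 with an offset of 10, -0.54 without the filter on dim probes, -0.85 with both channels above background on all arrays, -0.80 with the 6 genes put back and -1.31 over the brighter members, as the mean of array medians. Leaving out 1 replicate gave -0.77 to -0.75. The SD between members was 0.78, 0.64, 0.82, 0.99 and 0.79 under the first 5 of these, and 0.93 with the 6 genes put back. Leaving out 1 replicate gave 0.68 to 0.71. Members away from the arm median numbered 38 at a distance of 0.25, 8 at a distance of 1 and 23 to 25 with 1 replicate left out. Of the 21 brighter members, 9 lay more than 0.5 from their own median of -1.31, which is not the arm median. Members called lower by limma numbered 35 to 42 over all alternatives and stayed at 39 with any 1 replicate left out, and 3 to 6 were called higher. No called member changed sign, while ratios were over 1.5 times as large for 13 members with no background correction, for 14 by the authors' deposited table and for 24 by the net ratio. The offset is part of the construction of these differences, and other causes were not tested. The brighter members and the runs along the arm were chosen after seeing the data. No paired analysis was possible because D10 Small is the only group with replicates. Signal over background limits the 27 dimmer members.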
